A study of Mus musculus with 16 samples.

Results

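A set of 37 genes of the endoplasmic reticulum (ER) was examined in brown adipose tissue (BAT) of mice lacking the mitochondrial fusion protein OPA1 in thermogenic adipocytes. The set was chosen by name for its function, with earlier results of these data known. It holds 13 chaperones and cochaperones, 8 enzymes that form or rearrange disulfide bonds and 12 factors of ER-associated degradation (ERAD). The other 4 are genes of the translocon and of the translocon-associated TRAP complex. The 37 genes are among the 51060 to which the listed transcripts could be assigned. Bulk poly(A) RNA sequencing covered 16 mice aged 7 weeks, with 4 WT females, 4 WT males, 4 OPA1 BKO females and 4 OPA1 BKO males. The labels give WT mice as Opa1-flox Cre- and OPA1 BKO mice as Opa1-flox Cre+. Per the study's methods, the mice were on a C57Bl/6J background and Cre was driven by the Ucp1 promoter, so both genotypes carried floxed Opa1 and the deletion was directed to cells that express Ucp1 while RNA came from whole tissue. Each mouse is called by its group and its library number, from S01 to S16.

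Proteins that enter the secretory pathway are threaded into the ER through the Sec61 channel, folded with the help of chaperones such as BiP and calreticulin, and cross-linked by protein disulfide isomerases that ERO1 oxidases keep oxidized. Proteins that fail to fold have their glycans trimmed, are passed to a membrane complex built around the ubiquitin ligase HRD1, and are drawn into the cytosol by the ATPase p97 for destruction by the proteasome. When unfolded proteins accumulate, the sensors IRE1, ATF6 and PERK raise the transcription of many of these genes, in large part through promoter elements called ER stress response elements. PERK also acts through the transcription factors ATF4 and CHOP, and ERO1α is a well-known target of that branch. Brown adipocytes are not professional secretory cells, although they do secrete proteins and carry an extensive ER.

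The ER stress response elements are shown first because they are the sequence feature for which this gene set is best known. The window of 250 bases before and 50 bases after each RefSeq transcription start (build GRCm38.p6) was searched on both strands for the exact letters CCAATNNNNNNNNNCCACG (ERSE) and ATTGGNCCACG (ERSE-II). A window was found for 32 of the 37 genes, and none was found for Hyou1, Hspa13, Manf, Derl1 and Sec61a1. An ERSE stood in the window of 10 of these 32 genes (31.2%), against 37 of all 27025 genes with a window (0.137%), and an ERSE-II stood in 2 of the 32 against 12 of the 27025. No matches overlapped in the windows of the 37 genes. The sites are printed 5′ to 3′ along the strand of the gene, with the motif in capitals and 5 flanking bases on each side, and a site read on the other strand appears as its reverse complement, beginning with CGTGG:
Hspa5 (chr2:34772020-34772048, + strand): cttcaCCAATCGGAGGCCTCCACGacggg
Hsp90b1, distal (chr10:86705633-86705661, - strand): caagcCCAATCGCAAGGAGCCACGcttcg
Hsp90b1, proximal (chr10:86705528-86705556, - strand): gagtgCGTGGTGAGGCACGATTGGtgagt
Calr (chr8:84847070-84847098, - strand): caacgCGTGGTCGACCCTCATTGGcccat
Canx (chr11:50325795-50325823, - strand): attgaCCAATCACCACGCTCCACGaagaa
Dnajc3 (chr14:118937822-118937850, + strand): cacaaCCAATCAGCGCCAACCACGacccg
Creld2 (chr15:88819515-88819543, + strand): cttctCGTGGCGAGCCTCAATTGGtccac
Pdia6 (chr12:17266486-17266514, + strand): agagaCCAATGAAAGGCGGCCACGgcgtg
Ero1lb (chr13:12565677-12565705, + strand): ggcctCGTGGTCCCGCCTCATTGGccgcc
Syvn1 (chr19:6046527-6046555, + strand): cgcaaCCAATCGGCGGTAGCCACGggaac
Derl3 (chr10:75893237-75893265, + strand): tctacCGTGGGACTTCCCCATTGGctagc
Dnajb11, ERSE-II (chr16:22857847-22857867, + strand): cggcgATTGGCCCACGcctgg
Herpud1, ERSE-II (chr8:94386372-94386392, + strand): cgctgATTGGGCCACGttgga

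These sequences were then set beside the changes in expression. The 10 genes with an exact ERSE had a median log2 fold change of 0.30 between genotypes, with a range of -0.30 to 0.80, and the 22 genes with a window but no ERSE had a median of 0.25, with a range of -0.17 to 3.34. Of the former 7 were called higher in OPA1 BKO mice at an adjusted p under 0.05, and of the latter 13, where 20.8% of all genes tested were. The genes at the ends of these ranges are Syvn1, which carries an ERSE and was the member with the lowest fold change, and Ero1l, which had the highest and no exact ERSE in its window. The RefSeq start of Ero1l lies 199 bases inside the gene as GENCODE M21 draws it, so its window covers little sequence before the GENCODE start. Among the other genes without an ERSE, that offset is 258 bases for Dnajb9, whose window covers no sequence before the GENCODE start, and 127 bases for Pdia3. Edem1 and Sdf2l1 are, with Ero1l, the only members above 1 on the log2 scale, and their RefSeq and GENCODE starts coincide. Their 250 bases before the start are shown with those of Syvn1. These genes were picked by their fold changes and do not stand for the set, as 7 of the 10 genes with an ERSE were called higher. Capitals mark the ERSE:
Edem1 (chr6:108828391-108828640, + strand): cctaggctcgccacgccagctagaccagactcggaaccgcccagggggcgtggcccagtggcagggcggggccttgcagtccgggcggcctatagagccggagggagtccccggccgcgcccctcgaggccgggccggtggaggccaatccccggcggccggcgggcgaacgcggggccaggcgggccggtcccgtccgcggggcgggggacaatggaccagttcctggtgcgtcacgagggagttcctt
Sdf2l1 (chr16:17132384-17132633, - strand): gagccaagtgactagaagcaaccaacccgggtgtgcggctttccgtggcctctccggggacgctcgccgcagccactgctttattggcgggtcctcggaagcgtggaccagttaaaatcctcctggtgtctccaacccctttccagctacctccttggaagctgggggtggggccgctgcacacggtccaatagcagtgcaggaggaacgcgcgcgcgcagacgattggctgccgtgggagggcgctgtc
Syvn1 (chr19:6046326-6046575, + strand): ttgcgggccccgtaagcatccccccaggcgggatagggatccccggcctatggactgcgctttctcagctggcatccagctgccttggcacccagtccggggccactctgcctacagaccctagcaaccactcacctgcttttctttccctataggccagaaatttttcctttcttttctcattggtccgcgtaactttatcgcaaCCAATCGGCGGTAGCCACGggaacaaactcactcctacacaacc

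A match is a description of letters, and the absence of a match says only that these letters are not in this window. The UPRE (TGACGTGG) stood in the windows of Txndc5 and Vcp and in 0.714% of all genes with a window. The C/EBP-ATF element (TGATGNAA), to which ATF4 and CHOP can bind as dimers with C/EBP proteins, stood in those of Txndc5 and Herpud1 and in 4.51% of all genes with a window.

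Libraries held between 13607283 and 23114534 estimated reads, with a median of 18359375. The mitochondrial genome took 23.1% to 30.4% of the reads in WT mice, against 4.41% to 8.96% in OPA1 BKO mice, so levels were scaled by the trimmed mean of M values (TMM) and are given as scaled reads (CPM). Opa1 itself lay between 152 and 209 CPM in WT mice and between 17.9 and 36.8 CPM in OPA1 BKO mice, which follows the labels in every mouse. Brown adipocyte markers were abundant in all 16 mice, with Ucp1 at 2009 CPM or more. The sum of 6 skeletal muscle markers ranged from 17.2 to 5652 CPM in WT and from 2.86 to 13552 CPM in OPA1 BKO mice, and was over 10000 CPM in OPA1 BKO male S04 and OPA1 BKO female S06. Because RNA came from whole tissue, a lower share of a cell type cannot be told apart from less RNA per cell.

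All 37 genes passed the filter on low counts, and 24 were higher and 2 were lower in OPA1 BKO mice at an adjusted p under 0.05 (edgeR's quasi-likelihood test, sex as a covariate, Benjamini-Hochberg adjustment over all 15632 genes tested). That is 64.9% of the members called higher, where 20.8% of all genes tested were called higher, and 5.41% called lower, where 20.2% of all genes were. The median log2 fold change of the members was 0.29, and that of all genes tested was 0.01. In 9 of the 37 genes every OPA1 BKO mouse stood above every WT mouse, which held for 5.07% of all genes tested, and in 1 gene every OPA1 BKO mouse stood below, which held for 4.89%. Changes were mostly small, and only Ero1l, Sdf2l1 and Edem1 rose by more than 1 on the log2 scale. With scaling by library size alone 36 members were called higher and none lower, where 69.5% of all genes tested were called higher and 2.39% lower. That scaling moved the median of all genes to 0.57, and 32 of the 37 members stood above the median of all genes both there and under TMM. Changing between these scalings moves all genes by nearly the same amount, so this count could hardly differ between them.

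**Figure D1:**
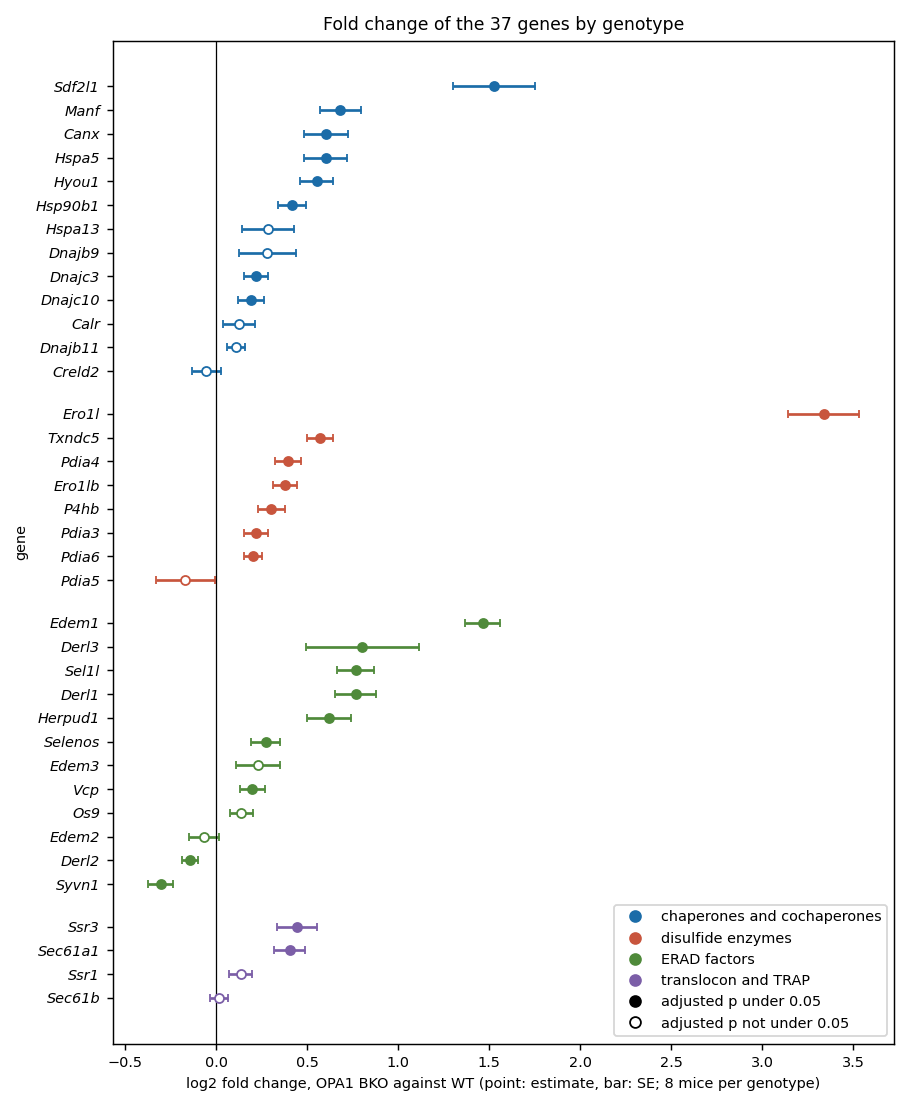
Log2 fold change of each of the 37 genes in OPA1 BKO against WT mice (horizontal axis), with bars for the standard error, 8 mice per genotype, colours for the role and filled points for an adjusted p under 0.05. Ero1l lies at 3.34, Sdf2l1 at 1.53 and Edem1 at 1.46, and most other members lie between 0 and 1.

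Among the chaperones, BiP (Hspa5), the ER member of the HSP70 family and a regulator of the stress sensors, lay between 265 and 383 CPM in WT mice with a median of 306, and between 363 and 646 CPM in OPA1 BKO mice with a median of 464. The highest WT mouse, female S13, stood above the lowest OPA1 BKO mouse, female S10, and the other 7 OPA1 BKO mice stood above all WT mice. The log2 fold change was 0.60 ± 0.12 (SE, n = 8 mice per genotype, adjusted p = 0.000705).

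GRP94 (Hsp90b1), the ER member of the HSP90 family, lay between 217 and 306 CPM in WT mice and between 290 and 374 CPM in OPA1 BKO mice (log2 fold change 0.42 ± 0.08 SE, adjusted p = 0.000417). The groups of Hsp90b1 overlapped through WT female S13, the highest WT mouse, and 6 of the 8 OPA1 BKO mice stood above it. GRP170 (Hyou1), a large HSP70 relative that exchanges nucleotide on BiP, lay between 72.2 and 103 CPM in WT mice and between 106 and 148 CPM in OPA1 BKO mice with no overlap (log2 fold change 0.55 ± 0.09 SE, adjusted p = 0.000174).

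The lectin chaperones that hold glycoproteins during folding differed from each other. Calnexin (Canx), which is anchored in the membrane, lay between 90.5 and 182 CPM in WT mice and between 183 and 267 CPM in OPA1 BKO mice. The groups did not overlap, by a margin of under 1 CPM between WT female S13 and OPA1 BKO female S14, and the log2 fold change was 0.60 ± 0.12 (SE, adjusted p = 0.00087). Calreticulin (Calr), its soluble relative, lay between 201 and 292 CPM in WT mice and between 226 and 326 CPM in OPA1 BKO mice, and did not pass the test at 0.13 ± 0.09 (SE, adjusted p = 0.279).

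Sdf2l1, a small partner of BiP's cochaperone ERdj3, had the largest fold change of the chaperones. It lay between 0.489 and 1.87 CPM in WT mice and between 2.12 and 5.65 CPM in OPA1 BKO mice, without overlap, and the log2 fold change was 1.53 ± 0.22 (SE, adjusted p = 5.9e-05). These are 8 to 28 reads per WT library and 43 to 105 per OPA1 BKO library, so its values are less precise than those of the abundant chaperones. Manf, a secreted protein that stabilizes BiP's bound state, lay between 22.7 and 33.4 CPM in WT mice and between 28.4 and 62.4 CPM in OPA1 BKO mice, with OPA1 BKO females S06 and S10 inside the WT range. Its log2 fold change was 0.68 ± 0.11 (SE, adjusted p = 0.000153).

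The J-domain cochaperones, which set the ATPase cycle of BiP, moved little. P58IPK (Dnajc3) rose by 0.22 ± 0.07 on the log2 scale (SE, adjusted p = 0.0135). ERdj5 (Dnajc10), which also reduces disulfides before degradation, was called at 0.19 ± 0.07 (SE, adjusted p = 0.0394), a call that was lost without any one of 13 of the 16 mice in turn, the highest adjusted p being 0.0966 without WT male S11. ERdj4 (Dnajb9) and ERdj3 (Dnajb11) had log2 fold changes of 0.28 and 0.11 and did not pass the test. Each passed it when a single mouse was left out, Dnajb9 without WT male S07 (adjusted p = 0.0339) and Dnajb11 without OPA1 BKO female S10 (adjusted p = 0.0407).

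Hspa13, an HSP70 relative, had a log2 fold change of 0.29 that did not pass the test, and passed it without WT female S01 (adjusted p = 0.0487). Creld2, a stress-induced ER protein, lay between 12.1 and 16.4 CPM in WT mice and between 11.5 and 19.0 CPM in OPA1 BKO mice (log2 fold change -0.05, adjusted p = 0.621). In all, 8 of the 13 chaperones and cochaperones were called higher (61.5%) and none lower, against 20.8% and 20.2% of all genes tested. Their median log2 fold change was 0.29.

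Ero1l, which encodes the oxidase ERO1α that passes electrons from protein disulfide isomerase to oxygen (chromosome 14, 45283087 to 45318771 on the - strand of GRCm38), had the largest change of the set. It lay between 24.1 and 37.2 CPM in WT mice with a median of 29.8, and between 150 and 526 CPM in OPA1 BKO mice with a median of 299. No OPA1 BKO mouse came near the WT range, and among OPA1 BKO mice female S14 was lowest and male S04 highest. The log2 fold change was 3.34 ± 0.19 (SE, n = 8 mice per genotype, adjusted p = 2.52e-09), or 10.1-fold.

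On the per-length scale of transcript abundance divided by length (TPM), Ero1l ranked 30th of the 37 genes in WT mice and 6th in OPA1 BKO mice. Its level was 7.06 ± 1.44 TPM (SD, n = 8) for WT and 163 ± 52.9 TPM (SD, n = 8) for OPA1 BKO mice. The median of all genes was itself higher by 0.81 on the log2(TPM + 0.5) scale in OPA1 BKO mice, so a TPM level compares genes within a genotype better than genotypes with each other. The short protein-coding transcript Ero1l-202 (686 bases) took 0% to 14.7% of the gene's TPM in WT mice, against 15.3% to 32.0% in OPA1 BKO mice, as Kallisto divided the reads among transcripts.

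The paralog Ero1lb, which encodes ERO1β, changed far less. It lay between 9.07 and 11 CPM in WT mice and between 11.5 and 14.6 CPM in OPA1 BKO mice, without overlap, and the log2 fold change was 0.38 ± 0.07 (SE, adjusted p = 0.00029). Of the 31-base words in its transcripts, 11.5% also occur in other genes, mainly the pseudogene Gm18562, which was assigned under 1 estimated read per library on average in either genotype.

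The protein disulfide isomerases are the most abundant catalysts of disulfide exchange. Of the 6 in the set 5 were called higher, where 20.8% of all genes tested were. The founding member PDI (P4hb) lay between 93.0 and 125 CPM in WT mice and between 110 and 160 CPM in OPA1 BKO mice (log2 fold change 0.30 ± 0.07 SE, adjusted p = 0.00332). Txndc5, an isomerase also known as ERp46, lay between 39.3 and 51.4 CPM in WT mice and between 52.6 and 75.1 CPM in OPA1 BKO mice without overlap (log2 fold change 0.57 ± 0.07 SE, adjusted p = 1.34e-05).

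ERp72 (Pdia4) had a log2 fold change of 0.40 ± 0.07 (SE, adjusted p = 0.000318), with 6 of 8 OPA1 BKO mice above the highest WT mouse, female S01. ERp57 (Pdia3), which works with the lectin chaperones, and P5 (Pdia6) rose by 0.22 and 0.20 on the log2 scale (adjusted p = 0.0128 and 0.00446). Pdia5 was the exception, between 4.73 and 11.5 CPM in WT mice and between 5.65 and 9.92 CPM in OPA1 BKO mice, and did not pass the test (log2 fold change -0.17, adjusted p = 0.429). Summed over the 8 disulfide enzymes, WT mice held 485 ± 25.6 CPM (SD, n = 8) and OPA1 BKO mice 871 ± 134 CPM (SD, n = 8), and without Ero1l it was 454 ± 26.2 and 554 ± 40.8 CPM.

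**Figure D2:**
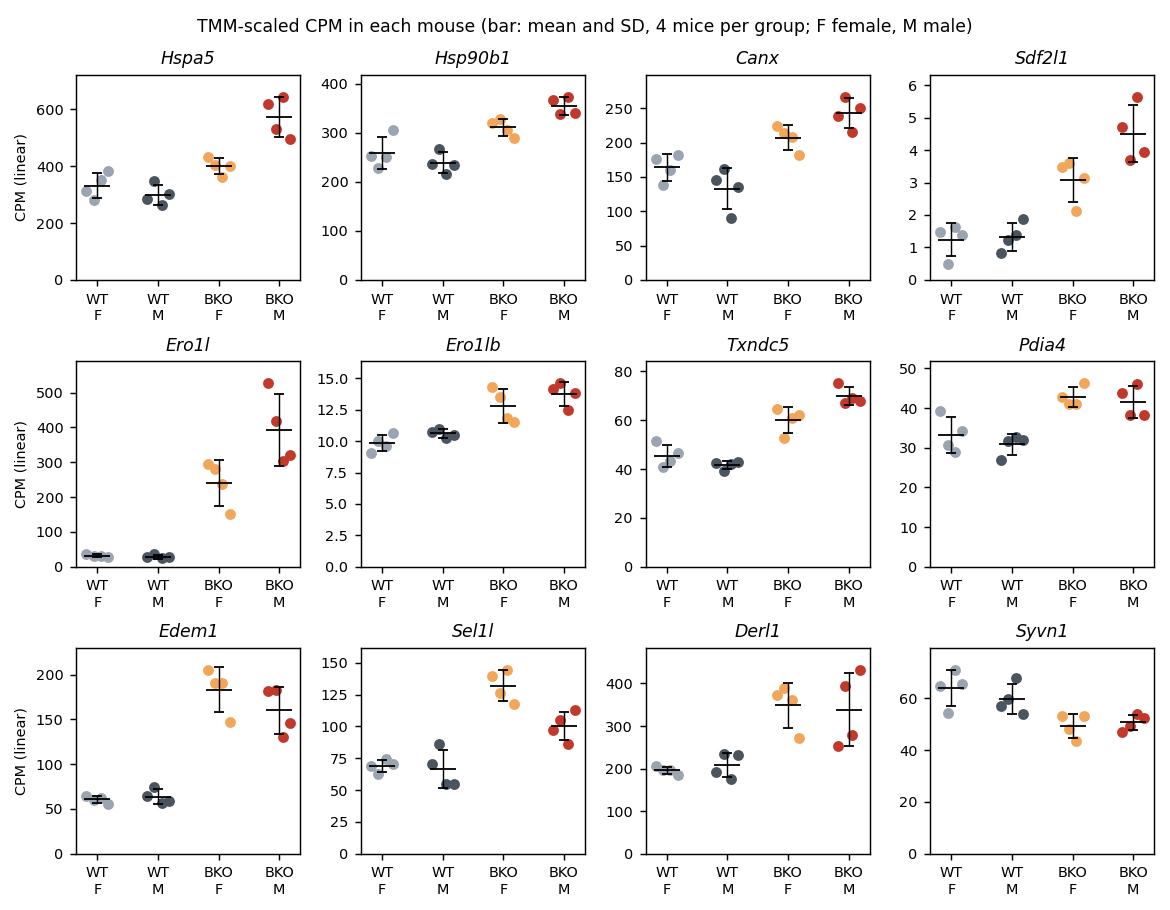
TMM-scaled CPM of 12 of the genes in each mouse (vertical axes, linear from 0), with bars for the mean and SD of the 4 mice of each sex and genotype. The OPA1 BKO mice of Ero1l lie between 150 and 526 CPM against 24.1 to 37.2 CPM in WT mice, and those of Syvn1 lie below all WT mice.

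Most ERAD factors that were called were higher in OPA1 BKO mice, and 2 were lower. Edem1, an early lectin that delivers glycoproteins with trimmed mannose for degradation, lay between 55.6 and 75.0 CPM in WT mice with a median of 60.9, and between 130 and 205 CPM in OPA1 BKO mice with a median of 182. The groups were well apart, with OPA1 BKO male S12 the lowest and female S02 the highest of the OPA1 BKO mice. The log2 fold change was 1.46 ± 0.10 (SE, n = 8 mice per genotype, adjusted p = 1.25e-08).

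Its relatives Edem2 and Edem3, which start and continue mannose trimming, did not pass the test. Edem2 lay between 20.3 and 29.7 CPM in WT mice and between 17.6 and 32.8 CPM in OPA1 BKO mice (log2 fold change -0.07, adjusted p = 0.552), and Edem3 had a log2 fold change of 0.23 (adjusted p = 0.138). Edem3 passed the test when WT male S07 was left out (adjusted p = 0.0155). Os9, the lectin that reads the trimmed glycan at the ligase complex, had a log2 fold change of 0.14 (adjusted p = 0.0951) and passed without OPA1 BKO female S06 (adjusted p = 0.0468).

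The ligase HRD1 and its scaffold went opposite ways. Sel1l, which stabilizes HRD1 and recruits substrates, lay between 54.5 and 86.0 CPM in WT mice and between 86.4 and 144 CPM in OPA1 BKO mice (log2 fold change 0.77 ± 0.10 SE, adjusted p = 2.37e-05). No mouse crossed between the groups, although WT male S07 and OPA1 BKO male S12 were less than 1 CPM apart. Syvn1, which encodes HRD1 (chromosome 19, 6046576 to 6053712 on the + strand), lay between 54.0 and 70.8 CPM in WT mice and between 43.5 and 54.0 CPM in OPA1 BKO mice.

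Every OPA1 BKO mouse stood below every WT mouse for Syvn1, the nearest being OPA1 BKO male S12 and WT male S15, again less than 1 CPM apart. The log2 fold change was -0.30 ± 0.07 (SE, adjusted p = 0.00228) under TMM, but 0.25 with library size alone, where the median of all genes was 0.57. Relative to the median of all genes it was -0.31 under either scaling, and these scalings shift all genes nearly alike. On log2(TPM + 0.5) it was -0.18 relative to that median. On the opposite strand Syvn1 overlaps Mrpl49, which averaged 32.0 TPM, and the strand setting used for pseudo-alignment is not given in the sources used here. The same holds for 6 more members with a neighbour above a mean of 1 TPM on the opposite strand, namely Txndc5 (Bmp6, 11.3 TPM), Manf (Dcaf1, 10.5 TPM), Hsp90b1 (1810014B01Rik, 9.56 TPM), Derl2 (Mis12, 6.85 TPM), Pdia3 (Catsper2, 4.03 TPM) and Sec61a1 (Gm44170, 3.06 TPM). The levels of all 7 are less certain than those of members without an expressed neighbour.

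The Derlins, membrane proteins thought to form part of the export channel, also split. Derl1 lay between 175 and 234 CPM in WT mice and between 253 and 431 CPM in OPA1 BKO mice without overlap (log2 fold change 0.77 ± 0.11 SE, adjusted p = 6.69e-05). Derl2 lay in a narrow range of 35.6 to 38.6 CPM in WT and 32.5 to 36.1 CPM in OPA1 BKO mice, with only OPA1 BKO female S14 inside the WT range. Its log2 fold change was -0.14 ± 0.04 (SE, adjusted p = 0.014) under TMM, but 0.41 with library size alone. Relative to the median of all genes it was -0.15 under either scaling, but only -0.04 on log2(TPM + 0.5). Without the filter on low counts the call of Derl2 was lost (adjusted p = 0.298).

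Derl3 was the least expressed member, at 0.187 to 0.795 CPM in WT mice (3 to 13 reads), against 0.443 to 1.18 CPM in OPA1 BKO mice (9 to 31 reads). Its call was at the edge (log2 fold change 0.80 ± 0.31 SE, adjusted p = 0.0478). The call was lost without any one of 12 of the 16 mice, with adjusted p up to 0.109 without OPA1 BKO female S02, and was lost in DESeq2 (adjusted p = 0.051).

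Herpud1, a membrane protein that assembles HRD1 complexes and is itself a classic stress-induced gene, lay between 55.3 and 88.1 CPM in WT mice and between 84.2 and 159 CPM in OPA1 BKO mice (log2 fold change 0.62 ± 0.12 SE, adjusted p = 0.000756). OPA1 BKO male S04 was the single OPA1 BKO mouse inside the WT range, and female S10 the highest. Selenos, a selenoprotein that links Derlins to p97, rose by 0.27 ± 0.08 on the log2 scale (SE, adjusted p = 0.0116).

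Vcp, which encodes p97, was the most abundant ERAD factor, at 96.4 ± 12.7 TPM (SD, n = 8) in WT mice. It was called at 0.20 ± 0.07 on the log2 scale (SE, adjusted p = 0.027), and without WT male S15 the call was lost (adjusted p = 0.0547). Its transcripts share 43.9% of their 31-base words with the processed pseudogene Vcp-rs, to which Kallisto assigned 19.9 reads per WT library and 31.2 per OPA1 BKO library, against 5578 and 8816 assigned to Vcp. Of the 12 ERAD factors, 7 were called higher (58.3%) and 2 lower (16.7%), against 20.8% and 20.2% of all genes tested. Their median was 0.25 on the log2 scale.

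The translocon and TRAP genes rose in part. Sec61a1, the pore-forming subunit of the Sec61 channel, lay between 65.4 and 86.8 CPM in WT mice and between 79.4 and 116 CPM in OPA1 BKO mice (log2 fold change 0.41 ± 0.08 SE, adjusted p = 0.00126). Sec61b, a small subunit of the same channel, had a log2 fold change of 0.02 ± 0.05 (SE, adjusted p = 0.798). The TRAP subunit Ssr3 rose by 0.45 ± 0.11 on the log2 scale (SE, adjusted p = 0.00376).

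The TRAP subunit Ssr1 did not pass the test at 0.14 ± 0.06 (SE, adjusted p = 0.104), and passed it without WT female S01 (adjusted p = 0.038). Of all members, Ssr1 depended most on transcript length. Its long transcript Ssr1-201 (9333 bases) took 53.2% of the gene's TPM in WT mice and 38.4% in OPA1 BKO mice on average, and with counts scaled from TPM by length the log2 fold change of Ssr1 was 0.47 and passed the test (adjusted p = 0.00323).

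**Figure D3:**
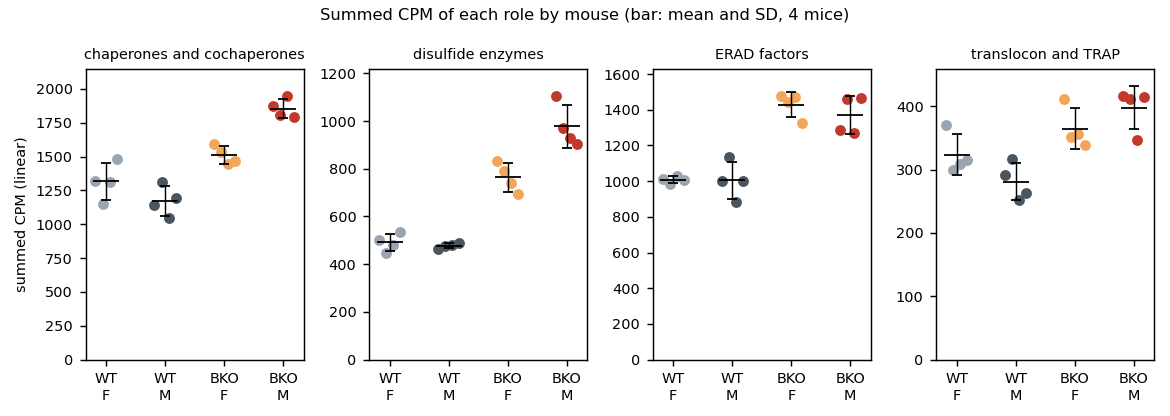
Summed CPM of the members of each role in each mouse (vertical axes, linear from 0), with bars for the mean and SD of 4 mice. The disulfide enzymes lie between 449 and 534 CPM in WT mice and between 694 and 1106 CPM in OPA1 BKO mice, while the sums of the chaperones and of the translocon and TRAP genes overlap between genotypes.

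Whether related genes changed in proportion was examined with ratios inside each mouse, which do not depend on how libraries are scaled. Of 9 pairs compared, 8 differed between genotypes (exact two-sided permutation test on the log2 ratio of CPM, 8 against 8 mice, Benjamini-Hochberg adjustment over the 9 pairs). For 4 of these the groups did not overlap and the exact p of 0.000155 was the smallest that 8 against 8 mice can give (adjusted p = 0.00035). In those 4 pairs the first gene gained on its partner. Edem1 is the first gene both over Edem2 and over Edem3, so the pairs are not independent. The share among other pairs of genes was not computed, and 41% of all genes tested were called by genotype.

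The log2 ratio of Ero1l to Ero1lb was 1.56 ± 0.26 (SD) over the 8 WT mice and 4.5 ± 0.44 (SD) over the 8 OPA1 BKO mice. For Derl1 over Derl2 the values were 2.44 ± 0.14 and 3.33 ± 0.31, for Edem1 over Edem2 they were 1.27 ± 0.25 and 2.80 ± 0.45, and for Edem1 over Edem3 they were 1.47 ± 0.31 and 2.67 ± 0.14. Edem2 over Edem3 differed by -0.32, within the spread of the mice (exact permutation p = 0.201).

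Calr lost ground to Canx, from a log2 ratio of 0.71 ± 0.28 (SD) over the 8 WT mice to 0.22 ± 0.19 (SD) over the 8 OPA1 BKO mice (exact permutation test, adjusted p = 0.00168). Hspa5 over Hsp90b1 and Pdia4 over Pdia3 differed by 0.18 each (exact permutation test, adjusted p = 0.0418 and 0.043). That test pooled the sexes. Hspa5 over Hsp90b1 differed by 0.002 in females and 0.36 in males, and Pdia4 over Pdia3 by 0.28 in females and 0.07 in males. The ratios were not tested within a sex. Leaving out a single mouse raised the adjusted p above 0.05 for Hspa5 over Hsp90b1 without any of 11 mice, up to 0.0731 without OPA1 BKO male S04 or S12, and for Pdia4 over Pdia3 without any of 12 mice, up to 0.0808 without OPA1 BKO female S14. Ssr1 over Ssr3 fell by 0.31 (exact permutation test, adjusted p = 0.0042), a difference that turned to 0.02 on TPM (adjusted p = 0.875).

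**Figure D4:**
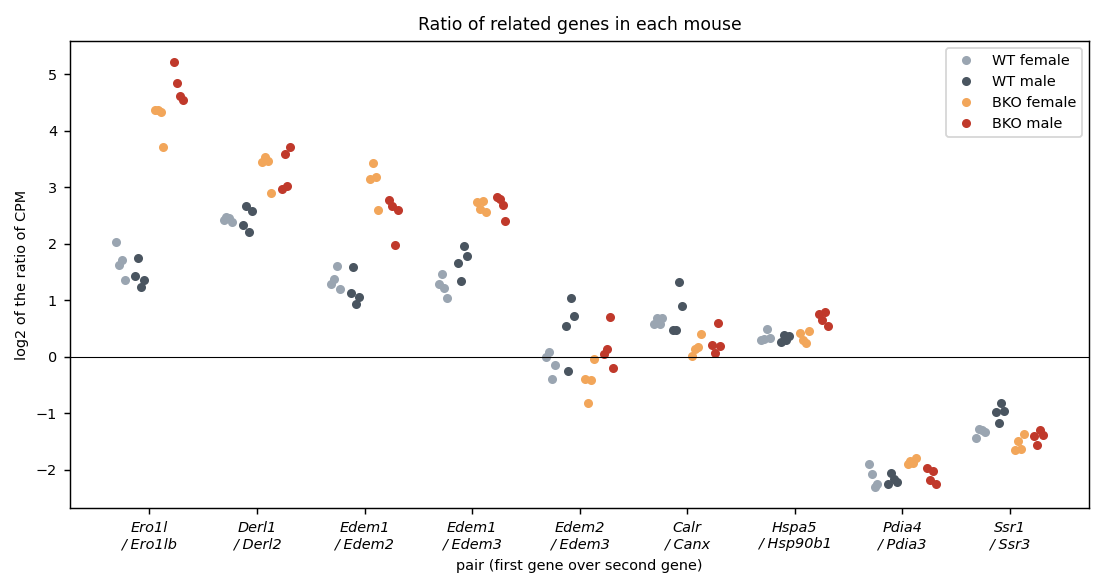
Log2 ratio of CPM of 9 pairs of related genes in each of the 16 mice (vertical axis), with colours for sex and genotype. The OPA1 BKO mice lie above all WT mice for Ero1l over Ero1lb, Derl1 over Derl2 and Edem1 over either relative, and the groups overlap for Edem2 over Edem3.

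Both sexes were then compared separately. In females 11 members were called higher and 1 lower, where 8.96% and 9.03% of all genes tested were called, and in males 23 were called higher and 1 lower, where 17.9% and 16.9% were. The log2 fold change in males minus that in females had a median of 0.34 over the chaperones, 0.15 over the disulfide enzymes, 0.10 over the ERAD factors and 0.29 over the translocon and TRAP genes. Hspa5 averaged 332 ± 44.7 CPM (SD, n = 4) in WT females and 400 ± 27.9 CPM (SD, n = 4) in OPA1 BKO females, and 300 ± 35.9 and 573 ± 70.3 CPM in the males. All 4 OPA1 BKO males stood above all 4 OPA1 BKO females.

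The log2 fold change of Hspa5 was 0.27 ± 0.12 (SE) in females and 0.94 ± 0.12 (SE) in males, a difference of 0.67 ± 0.17 (SE, edgeR interaction test, unadjusted p = 0.0011, adjusted p = 0.1). Calr had log2 fold changes of -0.12 in females and 0.37 in males (interaction adjusted p = 0.136), and Sec61a1 of 0.17 and 0.64 (interaction unadjusted p = 0.0022). Ero1l rose in both sexes, by 2.93 ± 0.23 (SE) in females and 3.75 ± 0.23 (SE) in males on the log2 scale (interaction unadjusted p = 0.0143, adjusted p = 0.252). Some ERAD factors had the opposite order. Herpud1 had log2 fold changes of 0.85 in females and 0.39 in males (interaction adjusted p = 0.403), and Sel1l of 0.94 and 0.60 (interaction adjusted p = 0.464).

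No member had an interaction of genotype and sex at an adjusted p under 0.05 in edgeR, where 0.115% of all genes did, and 9 of the 37 had an unadjusted p under 0.05, where 13.1% of all genes did. DESeq2 called 3, which were Hspa5, Calr and Sec61a1, where it called 2.88% of the 12297 genes to which it gave an adjusted p. With scaling by library size alone edgeR called Hspa5, and 1.31% of all genes. The fold change was greater in males in 13 of 13 chaperones, 6 of 8 disulfide enzymes, 7 of 12 ERAD factors and 4 of 4 translocon and TRAP genes. Over all genes tested 50.8% had a greater log2 fold change in males, and the median interaction was 0.17 for the members and 0.01 for all genes. The lean to males was not particular to the members. In the wider list of ER genes read below, 52 of the 74 genes tested had a greater log2 fold change in males, with a median interaction of 0.09.

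**Figure D5:**
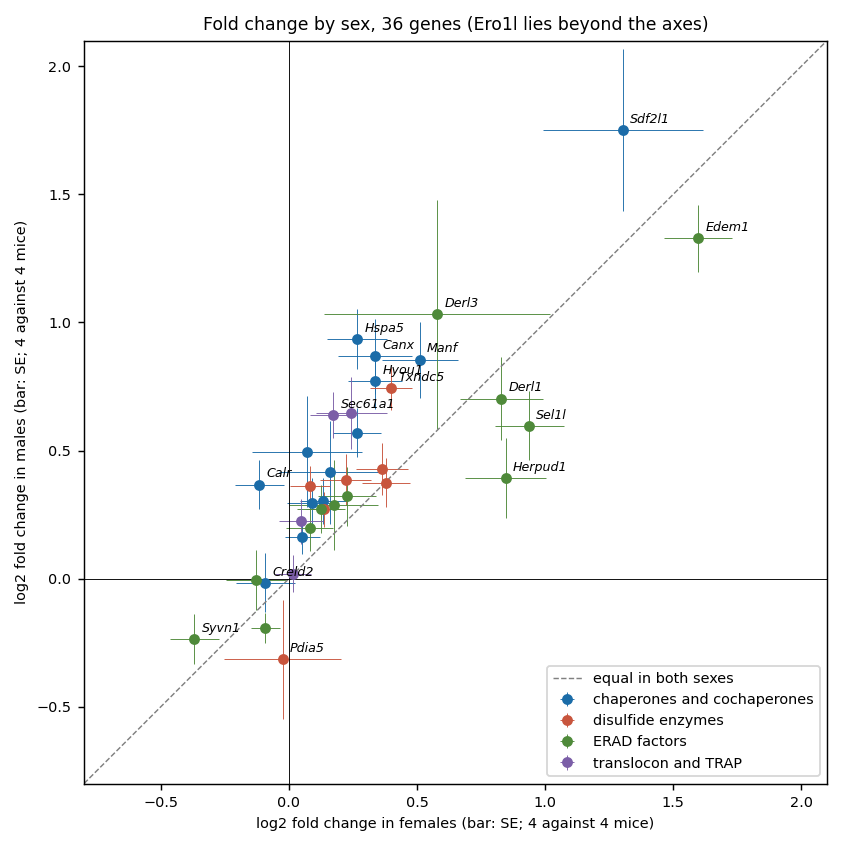
Log2 fold change of 36 genes in females (horizontal axis) and males (vertical axis), OPA1 BKO against WT, with bars for the standard error of 4 against 4 mice and a dashed line where both are equal. Ero1l, at 2.93 in females and 3.75 in males, lies beyond the axes. Hspa5 lies at 0.27 and 0.94, above the line, and Herpud1 at 0.85 and 0.39, below it.

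A wider list of 75 genes with kindred tasks in the ER, none of them a member, was read in the same fit. Of 74 that passed the filter, 18 were called higher (24.3%) and 15 lower (20.3%), near the 20.8% and 20.2% of all genes tested, and the median over the list was 0.03 on the log2 scale. Together they held 3844 ± 164 CPM (SD, n = 8) for WT and 3886 ± 142 CPM (SD, n = 8) for OPA1 BKO mice, while the sum of the 37 members was 3039 ± 228 and 4334 ± 319 CPM.

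Among the other chaperones, 4 of 11 were called higher and 2 lower, the first of them Dnajb12, a J-protein of the ER membrane, at 0.62 ± 0.09 on the log2 scale (SE, adjusted p = 5.53e-05). Sil1, an exchange factor of BiP, rose by 0.46 (adjusted p = 0.000256). Among other redox enzymes 2 of 14 were called higher and 4 lower, and Gpx8, an ER peroxidase that can use the peroxide made by ERO1α, lay between 112 and 214 CPM in WT and between 40.6 and 72.1 CPM in OPA1 BKO mice (log2 fold change -1.47 ± 0.16 SE, adjusted p = 2.71e-06). Tmx3, a membrane isomerase, rose by 0.48 (adjusted p = 0.0033).

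Among genes of glycan processing 4 of 13 were called higher and 1 lower, led by Stt3a, a catalytic subunit of the oligosaccharyltransferase, at 0.41 (adjusted p = 0.00113), and Dad1, a small subunit of the same enzyme, at -0.37 (adjusted p = 8.82e-05). Of 22 other ERAD factors 4 were called higher and 6 lower, and Erlin1, which directs activated IP3 receptors to degradation, rose by 0.98 ± 0.12 on the log2 scale (SE, adjusted p = 1.57e-05), while Ubxn8, which tethers p97 to the ER, rose by 0.50 (adjusted p = 7.95e-05). Of 14 other translocation genes 4 were called higher and 2 lower. The signal peptidase subunit Spcs2 rose by 0.42 (adjusted p = 4.71e-06) and the TRAP subunit Ssr4 fell by 0.39 on the log2 scale (adjusted p = 3.68e-05), with no overlap between genotypes for either. Gpx8, Dad1 and Ssr4 are lower under TMM, whose median over all genes is 0.01, but with library size alone Gpx8 was the 1 gene of the list called lower, at -0.92.

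Markers of other cell types in BAT were read beside these results, since some of the members are abundant in secretory and immune cells. The defining plasma cell genes were near 0, with Jchain at 0.31 to 3.0 CPM in WT and 0.15 to 0.51 CPM in OPA1 BKO mice and Mzb1 at no more than 9 reads in any library, and the summed level of 10 plasma and B cell markers was 35.7 to 171 CPM in WT and 15.8 to 56.1 CPM in OPA1 BKO mice. On average most of that sum was Irf4, a transcription factor that brown adipocytes also express, with means of 79.6 CPM in WT mice, against 20.1 CPM in OPA1 BKO mice. The other 9 genes summed to 10.3 to 36.4 CPM in WT mice, against 11.6 to 16.2 CPM in OPA1 BKO mice. Ighm, the immunoglobulin heavy chain of IgM, averaged 9.99 and 9.84 CPM (log2 fold change -0.02, adjusted p = 0.92), and was named, like Irf4, after its values were seen. The B cell gene Cd79a fell by 1.29 on the log2 scale (adjusted p = 0.000187). The macrophage markers rose with genotype, 9 of 10 being called higher, the sum being 99.0 to 140 CPM in WT and 133 to 545 CPM in OPA1 BKO mice, with male S12 highest. Adgre1, the macrophage gene for F4/80, rose by 1.34 (adjusted p = 0.000524).

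Of 8 fibroblast markers 5 were called higher and 1 lower, their sum being 527 to 867 CPM in WT and 592 to 1277 CPM in OPA1 BKO mice, and Col1a1 rose by 0.62 on the log2 scale (adjusted p = 0.0278). Of 6 endothelial markers 3 were called lower, their sum being 761 to 1071 CPM in WT and 635 to 869 CPM in OPA1 BKO mice, and Pecam1 fell by 0.34 on the log2 scale (adjusted p = 0.000551). Of 10 brown adipocyte markers 1 was called higher and 4 lower, their sum being 15338 to 23126 CPM in WT and 9021 to 14554 CPM in OPA1 BKO mice. Adipoq fell by 1.38 on the log2 scale (adjusted p = 8.67e-06), and Ucp1 did not pass the test at -0.46 (adjusted p = 0.0738). The part of these cell types in the changes of the members was not tested.

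Skeletal muscle markers did not pass the test for any of 6 genes, Ckm being at 1.40 ± 1.18 on the log2 scale (SE, adjusted p = 0.361), but varied widely between mice. Without the 2 mice over 10000 CPM of these markers, 24 members were called higher and 1 lower, where 18.2% and 16.9% of 15771 genes were. Without the 6 mice over 3000 CPM, which left 6 WT and 4 OPA1 BKO mice, 17 were called higher and 1 lower, where 14.2% and 12.3% of 15822 genes were. The members no longer called were Dnajc3, Dnajc10, Pdia3, Pdia6, P4hb, Vcp, Selenos and Derl2, among which P4hb had the largest log2 fold change over all mice, 0.30.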

How the data were processed

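BAT of 16 mice was sequenced by the authors (TruSeq stranded mRNA libraries), who deposited Kallisto 0.45.0 tables of estimated counts and TPM per transcript for each mouse. Per the labels the build was mm10, and the transcript release is not given in the sources used here. Estimated counts and TPM were summed per gene through GENCODE M21 (133284 of 135308 transcripts matched, with 0.483% to 0.73% of reads unmatched) and counts were rounded. Genes were filtered with filterByExpr (minimum 10 counts, total 15) and tested with edgeR 4.0.16, R 4.3.3 (genotype and sex, and a model of 4 groups for effects within a sex and the interaction), on TMM-scaled counts, checked on simulated data. DESeq2 1.42.0 and limma 3.58.1 on log2(TPM + pseudocount of 0.5 or 1) were alternatives. Fold changes on that scale understate changes of low genes. Pair ratios used exact permutation (scipy 1.17.1).

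The members and gene lists were chosen with earlier results of these data known. All members are named; of the wider ER list, the 2 genes per role with the largest absolute log2 fold change among those called and at 1 CPM or more on average. The study describes the WT mice as littermate controls. Labels name no litters, so litter could not enter the fits and p-values measure the spread between these mice. Depths were 13607283 to 23114534 counts per mouse, and counts below about 10 per library, as for Derl3, are imprecise.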

Additional observations from a re-analysis of the deposited data

Results flagged for a closer look

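Each of the 37 genes and Opa1 was examined in each of the 4 groups of 4 mice for a mouse that stood apart, meaning that its gap to the nearest mouse passed Dixon's 95% critical value as a share of the range of its group. This criterion flags about 1 in 20 groups by chance, and 7 of 152 groups were marked. Hyou1 was at 84.8 CPM in WT male S07, the other WT males being between 72.2 and 72.4 CPM. Dnajc10 was at 22.2 CPM in OPA1 BKO female S10, the others being between 26.9 and 27.4 CPM. Pdia4 was at 27 CPM in WT male S03, the others being between 31.8 and 32.7 CPM. Edem3 was at 21.6 CPM in WT female S05, the others being between 26.6 and 26.9 CPM. Derl2 was at 38.4 CPM in WT female S01, the others being between 35.6 and 36 CPM. Sec61b was at 29.6 CPM in OPA1 BKO female S02, the others being between 25.4 and 25.8 CPM. Ssr3 was at 146 CPM in OPA1 BKO male S12, the others being between 194 and 202 CPM. The 7 values fall in 7 different genes and 7 different mice.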

How the results depend on the processing

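Counts of called members were within 1.5 times of 24 higher under DESeq2 (23), RLE factors (24), upper-quartile factors (22), no mitochondrial genome (24), no low-count filter (23), a minimum mean of 1 TPM (24), no term for sex (24) and length-scaled counts (23). The other scalings raised most genes, and the cause was not tested. With library size alone (median of all genes 0.57), 0 members were lower, and 13 chaperones, 12 ERAD factors and 4 translocon and TRAP genes were higher, 35 members differed in females, and 1 interaction was called (3 in DESeq2). With limma on log2(TPM + 0.5) or log2(TPM + 1), whose medians of all genes were 0.81 and 0.74, 37 members were higher and 0 lower, with 13, 12 and 4 by role. Reversed fold changes were, with library size alone, Creld2 0.50, Edem2 0.49, Syvn1 0.25 and Derl2 0.41, with log2(TPM + 0.5), Creld2 0.87, Pdia5 0.74, Edem2 0.82, Syvn1 0.63 and Derl2 0.77, and with log2(TPM + 1), Creld2 0.84, Pdia5 0.69, Edem2 0.79, Syvn1 0.62 and Derl2 0.76. The Ssr1 to Ssr3 ratio reversed to 0.020 on TPM, where 7 pairs differed. Without the low-count filter 1 member was lower. Chosen after seeing the data, leaving out 2 mice over 10000 CPM of muscle markers gave 1 lower, and leaving out 6 over 3000 CPM gave 1 lower and 4 disulfide enzymes higher. Leaving out each mouse gave 21 to 25 members higher, 2 lower throughout, 7 to 9 chaperones, 7 disulfide enzymes, 5 to 8 ERAD factors and 2 to 3 translocon and TRAP genes higher, 9 to 13 members differing in females, 20 to 26 in males, 0 interactions and 6 to 8 pairs. Opa1 kept its call under all settings. Low depth limits Derl3 and Sdf2l1. No paired analysis was possible, although the study used littermate controls, because the labels name no litters and the library numbers are unique and pair no mice.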
